A study of Sus scrofa with 12 samples.

Results

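Cytosolic ribosomal proteins are the protein subunits of the ribosomes that translate nuclear mRNAs. Their transcripts were taken from the whole-genome count tables as the genes whose symbol starts with RPL or RPS and a digit, together with RPLP0, RPLP1, RPLP2 and RPSA where a feature carried that symbol. The RPS6K kinases, 8 genes, were left out. This gave 26 members of 20741 features, 12 of the large subunit series (RPL and RPLP) and 14 of the small subunit series (RPS). Each had 1 Ensembl identifier. Symbols came from a table of gene IDs that named 10349 of the 20300 Ensembl genes, and ribosomal protein genes without a symbol there were not analysed here.

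A ribosome joins a large and a small subunit, each built from rRNA and a fixed set of proteins, so most of these proteins are needed in equal numbers. Their mRNAs begin with a tract of pyrimidines, the TOP motif, and are translated as a class under the control of the mTOR kinase. In skeletal muscle the amount of ribosome is one of the limits on protein synthesis and growth. RPL7L1 is related to RPL7 and acts in ribosome assembly, and RPL10L, RPL36AL and RPS27L are close relatives of RPL10, RPL36A and RPS27.

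Muscle RNA of 12 pigs was sequenced, 6 labelled high drip and 6 labelled low drip, with 3 males and 3 females at each level. Replicate numbers only name the animals. Drip is the fluid that meat loses after slaughter. The animals were 167 to 189 days old. No breed, muscle or treatment is given in the labels used here. All 12 skeletal muscle markers with an identifier, among them ACTA1, TNNC2 and PYGM, were detected in every animal, and their summed level was 164305 to 194481 CPM (counts scaled to a common library size) in high drip animals and 164241 to 201317 CPM in low drip animals.

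Libraries held 8009627 to 12622043 counts. Tables were assigned to animals by the number in their name. The region table of every animal shared 737 to 745 of 770 counts with the whole-genome table of that number, and at most 167 with any other. However, 3 females are recorded with a table that carries another animal's number. They are high drip replicate 2 and low drip replicates 1 and 2. Liver transcripts were present in 6 libraries (ALB 25.6 to 317 CPM) and low in the others (0.327 to 2.49 CPM). The 6 are high drip replicates 1 to 4 and low drip replicates 5 and 6. CPM of members and of other single genes carry TMM scaling, which levels library composition, while ALB and the summed markers are scaled to the total counts alone.

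Together the 26 genes took 1.05% to 1.53% of all counts in high drip animals and 1.12% to 1.38% in low drip animals. The mean share was 1.25% ± 0.157 in high drip and 1.24% ± 0.098 in low drip animals (SD, n = 6 each). The high minus low difference was 0.012 percentage points, -0.043 without high drip replicate 6 and 0.052 without high drip replicate 5. In bulk samples, more cells of a type and more RNA per cell cannot be told apart. Both ends of the range were high drip males, replicate 5 with the lowest share and replicate 6 with the highest. CPM is not divided by transcript length here, so values of different genes are not set against each other. Reads that aligned to more than 1 place, 12.8% to 15.5% of alignments per library, are held apart in the tables. Ribosomal protein genes have many near-identical processed copies, and the level of any member is therefore uncertain.

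Among large subunit genes, RPL4, a core protein near the exit tunnel, had 1037, 1426 and 1613 CPM in high drip animals (lowest, median, highest), against 1262, 1307 and 1459 CPM in low drip animals. The high drip values enclosed the low drip ones. RPL5 had 577, 759 and 849 CPM in high drip animals, against 583, 754 and 799 CPM in low drip animals. Its partner RPL11 had 344, 436 and 480 CPM in high drip animals, against 352, 422 and 481 CPM in low drip animals. RPL5 and RPL11 enter the large subunit together with 5S rRNA, and outside the ribosome the same particle binds MDM2, the inhibitor of p53. RPL29 had 522, 727 and 769 CPM in high drip animals, against 588, 695 and 774 CPM in low drip animals. In all 4 genes the lowest of the 12 animals was high drip replicate 5.

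RPLP1 and RPLP2 form the stalk of the large subunit, which recruits elongation factors. RPLP1 (ENSSSCG00000004970) had 1764, 2186 and 2459 CPM in high drip animals, against 1647, 2331 and 2533 CPM in low drip animals. RPLP2 (ENSSSCG00000012842) had 197, 235 and 309 CPM in high drip animals, against 162, 238 and 287 CPM in low drip animals. For both, low drip replicate 1 was the lowest of all animals. That animal and high drip replicate 2, the highest for RPLP2, are among the females recorded with another animal's table.

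**Figure D1:**
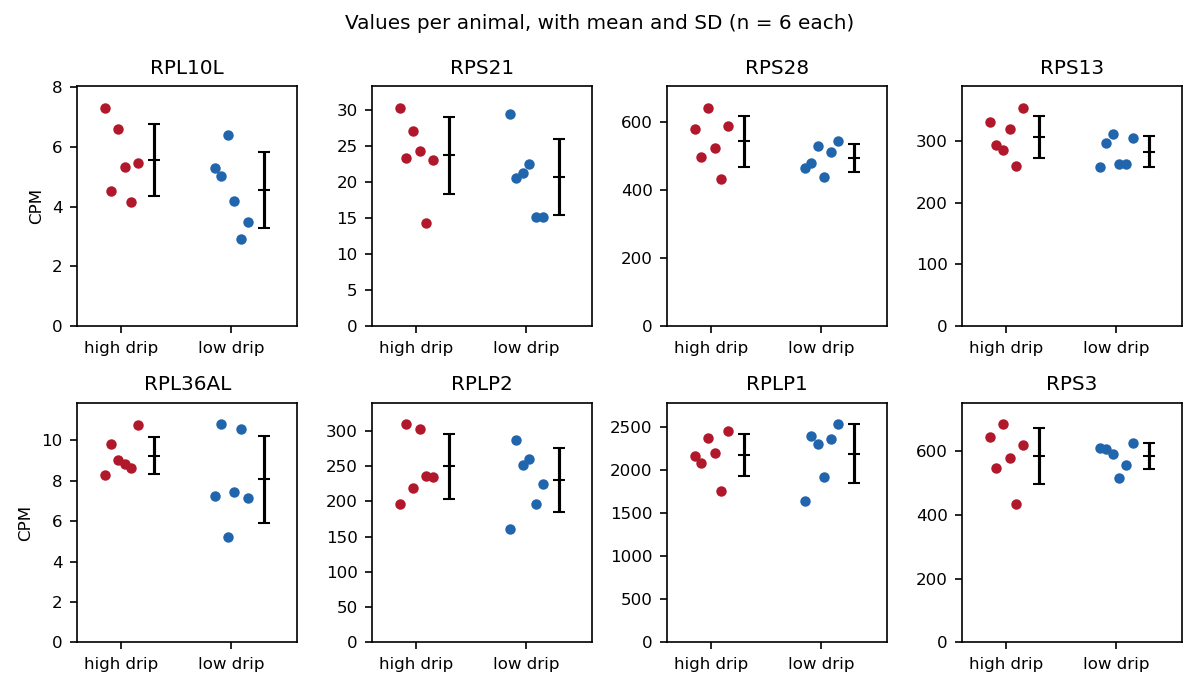
CPM (y axis, from 0) in 6 high drip and 6 low drip animals for 8 members, with mean and SD as bars. High drip and low drip animals overlap in every panel, and for RPS3 both groups have a mean of 585 CPM.

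In the small subunit, RPS3, which lines the entry of the mRNA channel, had 436, 598 and 685 CPM in high drip animals, against 518, 600 and 626 CPM in low drip animals. RPS3A had 648, 844 and 1020 CPM in high drip animals, against 722, 824 and 953 CPM in low drip animals. High drip replicate 5 was again the lowest animal in both, and high drip replicate 6 the highest for RPS3A. RPS21 drew few reads, with 14.2, 23.7 and 30.2 CPM in high drip animals, against 15.1, 20.9 and 29.4 CPM in low drip animals.

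Of the relatives, RPS27L, whose gene is a p53 target, had 82.0, 92.9 and 101 CPM in high drip animals, against 85.4, 96.5 and 106 CPM in low drip animals. RPL7L1 had 69.6, 76.4 and 89.1 CPM in high drip animals, against 72.3, 78.7 and 87.6 CPM in low drip animals. RPL36AL had 8.30, 8.92 and 10.8 CPM in high drip animals, against 5.21, 7.35 and 10.8 CPM in low drip animals. RPL10L, a retrogene known from the testis in mouse and human, had 4.14, 5.40 and 7.31 CPM in high drip animals, against 2.92, 4.61 and 6.39 CPM in low drip animals. These last values rest on 35 to 67 reads per high drip library and 31 to 54 per low drip library. Whether reads of RPL10 were counted on RPL10L was not tested.

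Levels varied little between animals. The coefficient of variation over the 12 animals had a median of 11.4% over the members, against 20.4% over all 10093 features tested. Among genes with a mean of at least 1000 counts it was 11.3% for 21 members and 13.8% for all 1060 such features. The least variable members were RPS27L (7.20%), RPL7L1 (8.60%) and RPS18 (9.27%), and the most variable RPL10L (25.6%), RPS21 (24.1%) and RPL36AL (19.7%). Counting error alone gives 14.5% for RPL10L, 6.94% for RPS21 and 11.1% for RPL36AL. For RPL4 it gives 0.87%, beside a measured 11.7%, which also holds differences between animals.

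Most members varied together over the animals. Over the 325 pairs of members the median Pearson correlation of log2 CPM was 0.50 (quartiles 0.21 and 0.72), and 287 pairs were above 0. Over all pairs of tested features the median was 0.00 (quartiles -0.24 and 0.24), and over pairs of the 1060 features with at least 1000 counts it was 0.10. These correlations are descriptions over the same 12 libraries. Without high drip replicate 5 the median over members was 0.34, against 0.11 for the features with at least 1000 counts. Without high drip replicates 5 and 6 it was 0.27. Among libraries with liver transcripts it was 0.29 and among those without 0.63 (6 animals each), and both of these animals are in the second set. Medians for the features with at least 1000 counts were not computed without both animals or by liver transcripts.

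Within the set, 18 genes had a median r of at least 0.5 with the other members, 8 of the large and 10 of the small subunit series. Their mutual median was 0.72, and 0.54 without high drip replicate 5. Both the 18 and the remaining genes were set apart by r over these same animals, so their mutual medians partly follow from the choice. Without high drip replicate 5 most of the 18 had a median r under 0.5 with the other members, from 0.27 for RPS12 to 0.59 for RPL4. RPL5 and RPL11 were the most alike of all pairs (r = 0.961, rho = 0.923, n = 12), and without high drip replicate 5 their r was 0.938. Next came RPL11 with RPS3A (r = 0.916, rho = 0.853). RPL4 was the closest to the mean of the other 25 (r = 0.973).

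The other 8 genes, among them RPL7L1, RPL10L, RPL36AL, RPLP2, RPS9, RPS21 and RPS27L, had a mutual median r of -0.01. All 4 relatives named above are among them. Their median r with the other members was 0.43 for RPS27L, 0.21 for RPL10L, 0.14 for RPL7L1 and 0.11 for RPL36AL. Reads were few for RPL10L and RPL36AL, with means of 50.3 and 88.1 counts. The stalk proteins RPLP1 and RPLP2 had r = 0.28 and rho = -0.01 over the 12 animals, and RPLP2 had r = -0.10 with the mean of the other 25 members. RPL10L and RPS21, both with few reads, were alike (r = 0.799, rho = 0.748). Their r was 0.967 in libraries with liver transcripts and 0.47 in those without. Both genes were lower in males than in females (log2 folds of -0.47 and -0.41), and these r are not adjusted for sex.

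**Figure D2:**
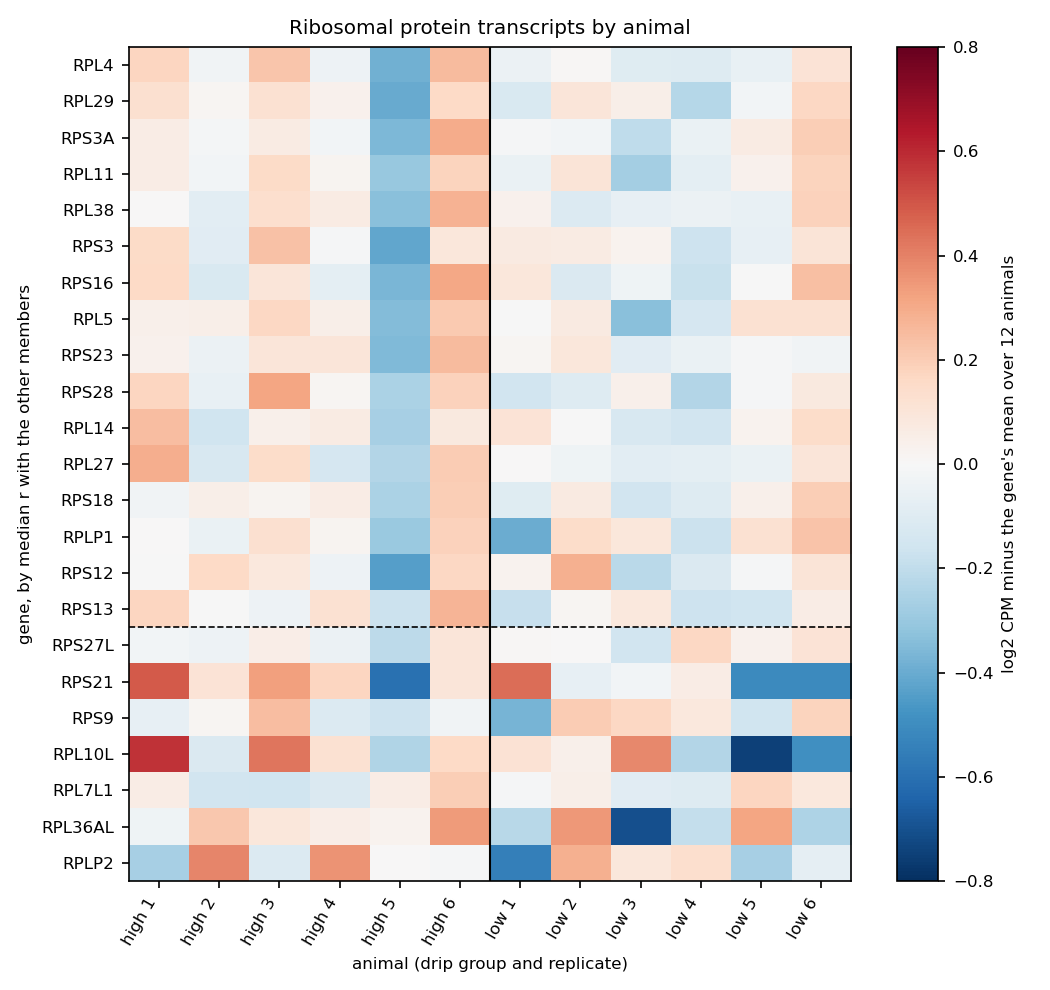
Log2 CPM minus the gene's mean over 12 animals (color) for 23 of the members (rows, by median r with the others) in high drip animals, left of the line, and low drip animals, right of it. The 16 genes above the dashed line are low in high drip replicate 5 and high in high drip replicate 6.

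Averaged over the 26 genes, log2 CPM minus each gene's own mean was -0.28 in high drip replicate 5 and 0.18 in high drip replicate 6. High drip replicate 5 was the lowest of all animals for 18 of 26 members, and high drip replicate 6 the highest for 10. The other 4 high drip animals lay between -0.01 and 0.12, and the 6 low drip animals between -0.09 and 0.05. High drip replicate 5 also had the smallest library (8009627 counts) and was the second oldest animal (186 days), and high drip replicate 6 was the youngest (167 days). In high drip replicate 5 the share of alignments outside features was 27.1%, within the range of the 12 libraries (24.2% to 29.3%). Over the 12 animals this share had r = 0.02 with the average over the members. Its r was -0.96 in libraries with liver transcripts and 0.43 in those without. Library size had r = 0.42 with the average over the members (n = 12), and 0.24 without high drip replicates 2 and 5. It was 0.96 in libraries without liver transcripts and -0.56 in those with them (n = 6 each). The part of library size in the low value was not tested.

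The first comparison asked whether ribosomal protein transcripts differ between high and low drip muscle. None of the 26 passed at an adjusted p of 0.05 in edgeR, as 0% of all 10093 features did. Of the 26 members 19 had a higher and 7 a lower fold in high drip animals, with a median log2 fold of 0.03, beside 51.2% of all features with a fold above 0, 48.8% below it and a median of 0.0046. None of the members had an unadjusted p under 0.05, as did 3.58% of all features. DESeq2 called 0 features, 344 with an unadjusted p under 0.05. With the tables of the 3 females assigned as recorded, 24 members were higher and 2 lower, beside 49.6% of all features higher. The median over members was then 0.05, and 1 member had an unadjusted p under 0.05 (199 of 10093 features). Again none passed. High and low drip animals overlapped for all 26 members, as for all but 0.0892% of features.

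**Figure D3:**
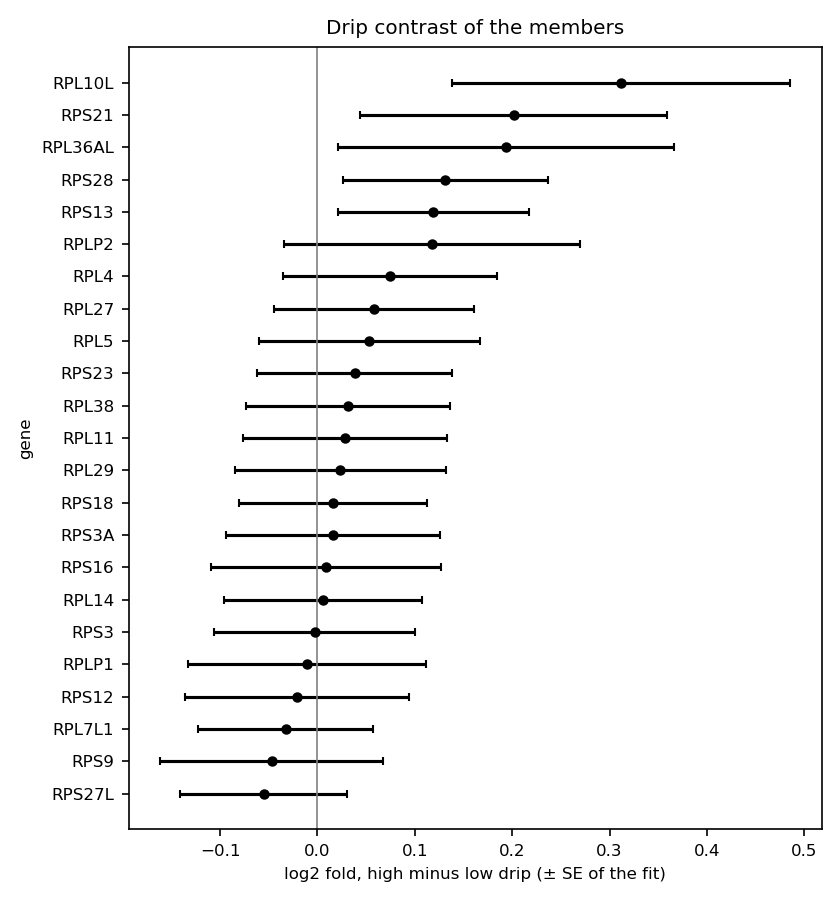
Log2 fold, high minus low drip, with the standard error of the edgeR fit (x axis) for 23 of the members (y axis). Folds run from -0.06 for RPS27L to 0.31 for RPL10L, and 13 of the genes drawn lie between -0.05 and 0.05.

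The smallest p belonged to RPL10L, with a mean of 5.56 ± 1.21 CPM in high drip animals, against 4.55 ± 1.28 CPM in low drip animals (SD, n = 6 each). Its log2 fold was 0.31 ± 0.17 (edgeR adjusted p = 0.999). RPS21 had 23.6 ± 5.39 CPM in high drip animals, against 20.6 ± 5.30 CPM in low drip animals (fold 0.20 ± 0.16). RPS28, a small protein near the mRNA exit, had 544 ± 75.1 CPM in high drip animals, against 496 ± 41.1 CPM in low drip animals (fold 0.13 ± 0.11). RPS13 had 308 ± 34.0 CPM in high drip animals, against 283 ± 24.5 CPM in low drip animals (fold 0.12 ± 0.10). RPL36AL, RPLP2, RPL4, RPL27 and RPL5 had log2 folds of 0.19, 0.12, 0.07, 0.06 and 0.05, and RPS27L had -0.06. Most of these folds moved with 1 animal left out. Without high drip replicate 6 they were 0.0064 for RPL4, 0.0012 for RPL27 and 0.06 for RPS13, and without high drip replicate 5 they were 0.15 for RPL4, 0.11 for RPL27 and -0.01 for RPS27L. RPLP2 ran from 0.03 without high drip replicate 2 to 0.20 without low drip replicate 2. RPL36AL ran from 0.10 without low drip replicate 3 to 0.32 without low drip replicate 2, and RPL5 from -0.0085 without low drip replicate 3 to 0.13 without high drip replicate 5. RPS27L was -0.09 without low drip replicate 3, and RPS28 0.08 without high drip replicate 3. The folds of the other 16 members lay between -0.05 and 0.05, and standard errors of all 26 between 0.09 and 0.17.

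The median fold rested on single animals. It was 0.09 without high drip replicate 5, -0.03 without high drip replicate 6, 0.01 without high drip replicate 3, low drip replicate 3 or low drip replicate 4, 0.02 without high drip replicate 1 and 0.07 without low drip replicate 6. In libraries with liver transcripts it was -0.07, with 7 of 26 members higher, beside 48.6% of all features. In those without it was 0.07, with 21 higher, beside 50.9% of all features. In each set the females were all at the same drip level, so with sex as a term the fold rests on males. With liver transcripts these are high drip replicate 4 against low drip replicates 5 and 6. Without them these are high drip replicates 5 and 6 against low drip replicate 4. Over all animals the median fold was -0.0075 with presence of liver transcripts as a term, and 0.0028 with age as a term. No member passed in any of these fits.

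Per sex, the median log2 fold of the members between high and low drip was 0.07 in females, with 24 of 26 higher. It was -0.04 in males, with 9 higher. Among all features the fold was above 0 for 49.8% in the female fit and 51.2% in the male fit. The members vary together over the animals, so these counts are not of independent genes. In females every high drip library had liver transcripts and every low drip library was without them. Drip and liver transcripts therefore cannot be told apart in females, which bears on the interaction too. The difference between the sexes was tested as an interaction, the high minus low fold in males less that in females. Its median over members was -0.11, with 18 below 0 and 8 above, beside 49% of all features below 0 and 51% above. It was 0.01 without high drip replicate 5, -0.24 without high drip replicate 6, -0.04 without low drip replicate 6 and 0.04 with presence of liver transcripts as a term. Among the members with the smallest p were RPS27L (-0.19 ± 0.17), RPL10L (0.37 ± 0.35), RPL11 (-0.20 ± 0.21) and RPL5 (-0.21 ± 0.23). Without high drip replicate 5 these were -0.12 for RPS27L, -0.08 for RPL11 and -0.08 for RPL5, and without high drip replicate 6 they were -0.29 for RPS27L, -0.33 for RPL11 and -0.35 for RPL5. RPL10L had 0.17 without high drip replicate 2. No member passed in edgeR, as 0% of features did, and none had an unadjusted p under 0.05, as did 3.42% of features. DESeq2 called 4 features (0.0396%), none of them a member.

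Males and females were compared in the same fit. RPL10L had 4.25 ± 1.00 CPM in males, against 5.86 ± 1.07 CPM in females (n = 6 each), a log2 fold of -0.47 ± 0.17 (edgeR adjusted p = 0.71). RPS21 had 19.0 ± 4.64 CPM in males, against 25.3 ± 4.18 CPM in females, a fold of -0.41 ± 0.16 (edgeR adjusted p = 0.715). These were the members with an unadjusted p under 0.05, 2 of 26, beside 6.68% of all features. RPS3 had a fold of -0.15 and RPL7L1 one of 0.10. None of 26 members passed in edgeR, as 0% of features did, and males and females overlapped for all 26, as for all but 0.337% of features. DESeq2 called 2 features (0.0198%), neither a member. The median over members was -0.03, with 16 lower in males and 10 higher, beside 50.5% of all features lower and 49.5% higher. Without TMM factors it was 0.03, with a median over all features of 0.055. Leaving out 1 animal at a time, it lay between -0.08 without high drip replicate 6 and 0.03 without high drip replicate 5. For RPS3 the fold without high drip replicate 5 was -0.07.

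Age in days, the remaining label, was examined after the values of the animals had been seen. In an edgeR fit with sex, drip and age, 25 of 26 members had a lower level in older animals, beside 50.6% of all features (49.4% were higher), with a median slope of -0.13 log2 per 10 days. No member passed, as 0% of features did. An unadjusted p under 0.05 was found for 8 members, all lower, beside 9.68% of all features with such a p and 5.08% with such a p and a negative slope.

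RPS12, a small subunit protein with a part in cell competition in the fly, had the smallest p of the 8. It was at 565 CPM in the youngest animal, high drip replicate 6 (167 days), and at 490 to 539 CPM in the 3 males of 172 days. In the females of 173 days, high drip replicate 2 had 562 and low drip replicate 2 had 612 CPM. The 4 animals of 179 to 181 days had 464 to 534 CPM. The oldest, high drip replicate 5 (186 days) and low drip replicate 3 (189 days), had 371 and 433 CPM, the lowest of all. The slope was -0.29 ± 0.06 per 10 days (edgeR adjusted p = 0.352). RPL5 had -0.26 ± 0.07 and RPS18 -0.20 ± 0.06 (edgeR adjusted p = 0.40 and 0.441). DESeq2 called RPS12 (adjusted p = 0.00292) and 20 other features (0.208% in all), none of those a member. Over the edgeR and voom alternatives the adjusted p of RPS12 was 0.246 to 0.879.

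**Figure D4:**
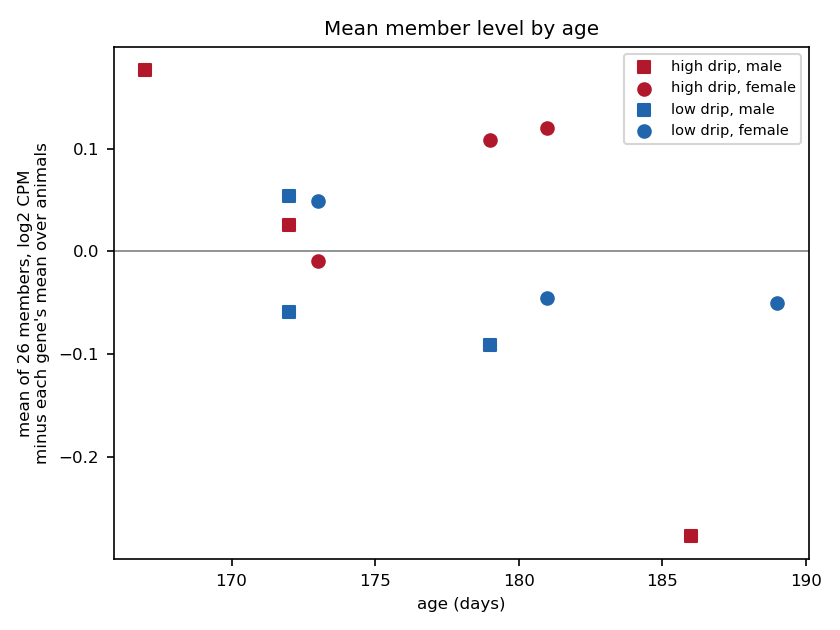
Mean over 26 members of log2 CPM minus each gene's mean over animals (y axis) against age in days (x axis), 1 point per animal, with squares for males and circles for females. The values of the 6 males run from 0.18 at 167 days to -0.28 at 186 days, while the females lie between -0.05 and 0.12.

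The slope differed in size with the animals used, and its median changed sign in females alone. Over all features the share with a slope above 0 lay between 47.4% (females alone) and 50.0% (tables as recorded) in the fits below. In males alone its median over members was -0.24 per 10 days, with 25 of 26 members lower and 14 with an unadjusted p under 0.05 (634 of 10347 features), and in females alone it was 0.0091, with 11 lower and 1 with such a p (901 of 10080 features). Without the 3 females whose tables are in conflict it was -0.23, with 25 lower and 17 with such a p (790 of 10228 features). With their tables as recorded it was -0.16, with 22 lower and 8 with such a p (1018 of 10093 features). Whether the sexes differ in slope was not tested. Without high drip replicate 5 the median was -0.05, with 20 members lower and 2 with an unadjusted p under 0.05, a share near that of all features (830 of 10211). Age and drip were nearly balanced, at 176 ± 6.92 days in high drip and 178 ± 6.74 days in low drip animals. Age was less even by sex, at 179 ± 5.99 days in females and 175 ± 6.74 days in males. It was 175 ± 4.07 days in animals with liver transcripts and 179 ± 8.16 days in those without. The r of age with the member mean was -0.56 over the 12 animals, and -0.27 without high drip replicate 5 and low drip replicate 3. It was 0.82 in libraries with liver transcripts and -0.80 in those without (n = 6 each). In the set with liver transcripts every male was 172 days old, and every female was older and high drip. These r are not adjusted for sex or drip.

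Other genes of translation were set beside the members. Of the list of elongation factors and TOP mRNAs 11 of 22 were tested, 8 higher and 3 lower in high drip animals and none called. Their median r with the mean of the 26 members was 0.42, from -0.46 for EEF2K, the kinase of elongation factor 2, to 0.885. EEF1B2, the exchange factor of elongation factor 1, had r = 0.885 (rho = 0.867), the histone chaperone NAP1L1 0.805 (0.874) and BTF3, a subunit of the nascent chain complex, 0.792 (0.804). Without high drip replicate 5 these r were 0.787, 0.85 and 0.786. FAU, which encodes the small subunit protein RPS30 in a fusion, had r = -0.28. LARP4, HNRNPA1 and PABPC4 had the smallest p for drip in this list, with log2 folds of -0.20, -0.19 and -0.09, and r of -0.08, -0.09 and -0.04 with the member mean. Over all 10067 other features the median r with the member mean was -0.01 (quartiles -0.22 and 0.20).

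Initiation factors had 26 of 40 tested, 11 higher and 15 lower in high drip animals, with a median r of 0.19 with the member mean. The eIF3 subunit EIF3E reached 0.708. EIF5B, which joins the subunits, had 49.5 ± 6.18 CPM in high drip animals, against 57.9 ± 8.83 CPM in low drip animals (fold -0.22 ± 0.10), and EIF3I and EIF3D had folds of 0.19 and -0.15. Ribosome biogenesis genes had 46 of 70 tested, 18 higher and 28 lower, with a median r of -0.13. In that list MYC, the transcription factor, had 16.2 ± 5.01 CPM in high drip animals, against 26.4 ± 12.6 CPM in low drip animals (fold -0.68 ± 0.30), the 60S export adaptor NMD3 -0.34 ± 0.15 and UTP4 -0.23 ± 0.11. The list from mTOR to the S6 kinases had 18 of 27 tested, 10 higher and 8 lower, with a median r of -0.20. These totals include PDK1, a pyruvate dehydrogenase kinase outside that pathway (fold 0.04, r = 0.42). They also include RPS6KA1, RPS6KA2, RPS6KA4, RPS6KA5 and RPS6KC1, which are not the S6 kinases RPS6KB1 and RPS6KB2 that mTOR activates. The counts and the median r are therefore of a mixed list. RPS6KA1, a kinase that phosphorylates RPS6, had 4.17 ± 1.29 CPM in high drip animals, against 2.87 ± 0.449 CPM in low drip animals (fold 0.53 ± 0.22), while TBC1D7 and RPS6KA4 had folds of -0.30 and 0.25. RHEB, the activator of mTOR, had the highest r of this list, 0.738. No gene of the 4 lists was called for drip (each edgeR adjusted p was 0.999).

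Markers of other cell types were compared by their summed level. For lymphocytes 5 of 8 markers had an identifier, with 2.75 to 12.1 CPM in high drip animals, against 2.18 to 6.72 CPM in low drip animals. Fibroblast markers (5 of 6) had 2797 to 5271 CPM in high drip animals, against 3219 to 5060 CPM in low drip animals. Satellite cell and myoblast markers (2 of 4) had 8.73 to 28.4 CPM in high drip animals, against 6.96 to 24.0 CPM in low drip animals. Across the 9 marker lists the correlation of the summed log2 level with the member mean lay between -0.27 for skeletal muscle and 0.22 for lymphocytes (n = 12).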

How the data were processed

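The deposited values are raw counts per feature, made by the authors with TopHat2 2.0.3, Bowtie 0.12.7.0 and HTSeq on the build Sscrofa10.2, per the submitters' processing notes. Strand setting and annotation release are not given in the sources used here. Per the labels, libraries were TruSeq RNA v2 from Trizol RNA. HTSeq's 5 summary lines were kept out of totals and tests. Whole-genome tables were assigned by the number in their name, not as recorded for 3 females, and the region tables served for that check. The test was the two-sided quasi-likelihood F-test of edgeR 4.0.16 (R 4.3.3) with TMM factors and filterByExpr, adjusted by Benjamini-Hochberg over 10093 features, with sex and drip as terms. All 26 members passed the filter. SE is the fold divided by the root of F. Log2 CPM used a prior count of 2. Alternatives used DESeq2 1.42.0, limma 3.58.1 (voom), other scalings, terms and sets of animals. The steps were tested on simulated data. The members, lists and rules were chosen with earlier results of these data known. Named for drip were the 10 members with the smallest p, 5 for sex and for the interaction, a fixed set, and those extreme in level or spread; for age, 3 after their values were seen. No gene lengths or sequences were used. Some members that these rules name are not reported here by name or drawn in the gene plots, but count in every total.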

Additional observations from a re-analysis of the deposited data

Results flagged for a closer look

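In the high drip group, high drip replicate 5 stood apart for 2 members. RPL29 was at 522 CPM there, with the next animal at 695 CPM, and RPL5 was at 577 CPM, with the next at 755 CPM. The gap took 0.703 and 0.657 of the group's range, above Dixon's critical value of 0.625 for 6 animals. In all, 54 groups were examined in this way, and chance flags about 1 in 20, so 2 flags are no more than chance gives. The members are not independent of each other.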

How the results depend on the processing

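Over all alternatives the members called were 0 for drip, sex and the interaction, and 1 for age (RPS12, fold -0.29 in DESeq2). Counts over all features were 0 except for 2 for drip in libraries without liver transcripts, 2 for sex, 4 for the interaction and 21 for age in DESeq2, and 1 for the interaction with presence of liver transcripts as a term. With that term the median interaction of members was 0.0442 and the interaction of RPL5 0.0198. In females that term and drip are the same split, so in the interaction fit its effect is set by the males alone. The median age slope was 0.0091 in females alone. The cause of these changes was not tested. Leaving out 1 animal at a time gave a median interaction of -0.242 to 0.0135, a median r of 0.339 to 0.534 and a drip fold of RPL5 of -0.0085 to 0.13.

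The median r over pairs was 0.288 in libraries with and 0.628 in libraries without liver transcripts, 0.267 without high drip replicates 5 and 6, and 0.557 for members with at least 100 counts. Drip folds changed sign in libraries with liver transcripts for RPS28 (-0.0360), RPL36AL (-0.0221), RPL4 (-0.0845), RPL27 (-0.174) and RPL5 (-0.0886), and in those without for RPS21 (-0.26) and RPLP2 (-0.14). They changed sign in males alone for RPL4 (-0.0236), RPL27 (-0.0381) and RPL5 (-0.0572), and in females alone for RPS27L (0.0415). The folds by liver transcripts keep sex as a term and rest on males alone. With liver transcripts the only high drip male is replicate 4, and without them the only low drip male is replicate 4. Of 535 recomputed folds of named members, 521 kept their direction and side of the threshold. Age fits and the set without high drip replicates 5 and 6 were added after the data were seen. None of the 9 related gene pairs listed for comparison had both genes with a symbol, so these were not run. No paired analysis was possible because the labels give no replicate numbers, and those used here only name the animals and tie none together.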

Other observations

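Of 786 other named features with at least 1000 counts, those most like the mean of the 26 members over the 12 animals were PRKAR1A, a regulatory subunit of protein kinase A (r = 0.894, rho = 0.853), and HINT1, a purine phosphoramidase (r = 0.889, rho = 0.86). Without high drip replicate 5 these r were 0.758 and 0.833. PRKAR1A had 178.0 ± 37.4 CPM in high drip animals, against 178.4 ± 24.1 CPM in low drip animals (SD, n = 6 each), and HINT1 had 172 ± 33.1 CPM in high drip animals, against 169 ± 15.7 CPM in low drip animals. MYL11, a fast fibre myosin light chain, had r = 0.736, and 0.475 without high drip replicate 5. The mRNA binding protein YBX1 had r = 0.713. These genes were chosen after their values were seen.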
